A study of Caenorhabditis elegans with 80 samples.

Results

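The endoplasmic reticulum unfolded protein response was followed through 10 genes in whole Caenorhabditis elegans exposed to acrylamide, cadmium or mercury. The genes were hsp-3, hsp-4, xbp-1, ire-1, pek-1, atf-6, ckb-2, crt-1, pdi-2 and enpl-1, taken as every probe set whose annotated symbol is one of these names. They had 16 probe sets among 22548 on the array, and they are 10 of the 17118 genes that had a probe set of their own. The genes xbp-1, ire-1, pek-1, atf-6, pdi-2 and enpl-1 had 2 probe sets each and the other 4 genes had 1. A probe set is called shared below where its suffix marks possible cross-hybridization with other transcripts and the gene's second probe set has no such suffix. All 16 probe sets passed the filter on low signal in all 3 series.

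Mid-L4 worms, in their last larval stage, were kept in CeHR, a liquid medium free of bacteria, and whole animals were collected. Acrylamide was given at 100, 500 and 1000 mg/L, cadmium at 5, 20 and 50 mg/L and mercury at 5, 10 and 25 mg/L, called low, mid and high dose here, for 4 h or 8 h. Each series had its own unexposed worms in the same medium at 0, 4 and 8 h, and each of the 27 groups had 3 arrays except mid cadmium at 4 h, which had 2. Per the labels, the 0 h control came from a single flask, and the separation of the other replicates is not described, so the spread behind the p-values may be in part technical. No transgene, mutation or second agent is named in the labels of any group.

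In this response, unfolded protein in the lumen of the endoplasmic reticulum (ER) engages sensors in its membrane. The kinase and endoribonuclease IRE-1 splices xbp-1 mRNA, which then encodes an active transcription factor. The kinase PEK-1, the worm PERK, slows translation, and ATF-6 is a membrane-bound transcription factor released by cleavage. In C. elegans hsp-4, one of a pair of BiP chaperone genes with hsp-3, is the usual readout of the IRE-1 and XBP-1 branch. The deposited signals report transcript levels and carry no separate reading of xbp-1 splicing or of sensor activity.

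The values were MAS5 signals, which are array intensities on a linear scale, and all arrays were brought to a common median of 202.9. Replicate 1 of the acrylamide control at 0 h was dim before that step, with a median of 80.32 against 152.7 to 282.2 in the other 79 arrays. Its group enters a single comparison, that of acrylamide controls at 4 h and 0 h, although the array also adds to the pooled variance of every acrylamide contrast and of the fit of all arrays. Changes below are differences of log2(signal + 51) from a fit across all probe sets with limma. A probe set was called, and is said to have risen or fallen, at a Benjamini-Hochberg adjusted p under 0.05. In whole worms, fewer cells of a type and less RNA per cell cannot be told apart.

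The largest number of members moved at 8 h of high mercury, where 8 of 16 probe sets rose and none fell, from hsp-4, ckb-2, pek-1, xbp-1, ire-1 and pdi-2. All tested probe sets were called at 31.1% there, and at 17.1% in the higher direction alone. The median change of the members was 0.51, beside 0.01 over all probe sets tested. After 4 h of high mercury 4 member probe sets rose and 1 fell, beside 22.4% called over the whole array (9.03% higher and 13.4% lower), and the members' median change was −0.07 against −0.05 for all. At mid mercury 2 rose and 1 fell at 4 h, where 16.3% of all were called (6.92% higher and 9.42% lower), and 3 rose at 8 h, where 17.7% were called (10.2% higher). At low mercury 1 rose at 4 h (2.69% called, 1.04% higher) and none at 8 h (0.699%).

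Cadmium and acrylamide moved fewer of the 16 probe sets. With high cadmium 1 rose at 4 h, beside 7.09% of all probe sets called (2.83% higher), and 2 rose at 8 h, beside 6.43% (3.61% higher). No member was called at low cadmium at 4 h (0.61%) or 8 h (0.29%), nor at mid cadmium at 4 h (14.9%) or 8 h (2.01%). With high acrylamide 1 rose at 4 h, beside 6.16% called (3.11% higher), and 3 fell at 8 h, beside 8.77% called and 4.61% called lower. None was called at low acrylamide (0.157% at 4 h and 0.326% at 8 h) or mid acrylamide (1.6% and 2.4%). Over the 18 comparisons with control this made 22 higher and 5 lower calls among 288. Of the higher calls 7 were of ckb-2, 4 of hsp-4 and 3 of each pek-1 probe set. No share over all probe sets was pooled in the same way, so the total is to be read beside the shares of the single comparisons. Under the authors' own scaling, without the common median, the split was 26 higher and 2 lower.

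**Figure D1:**
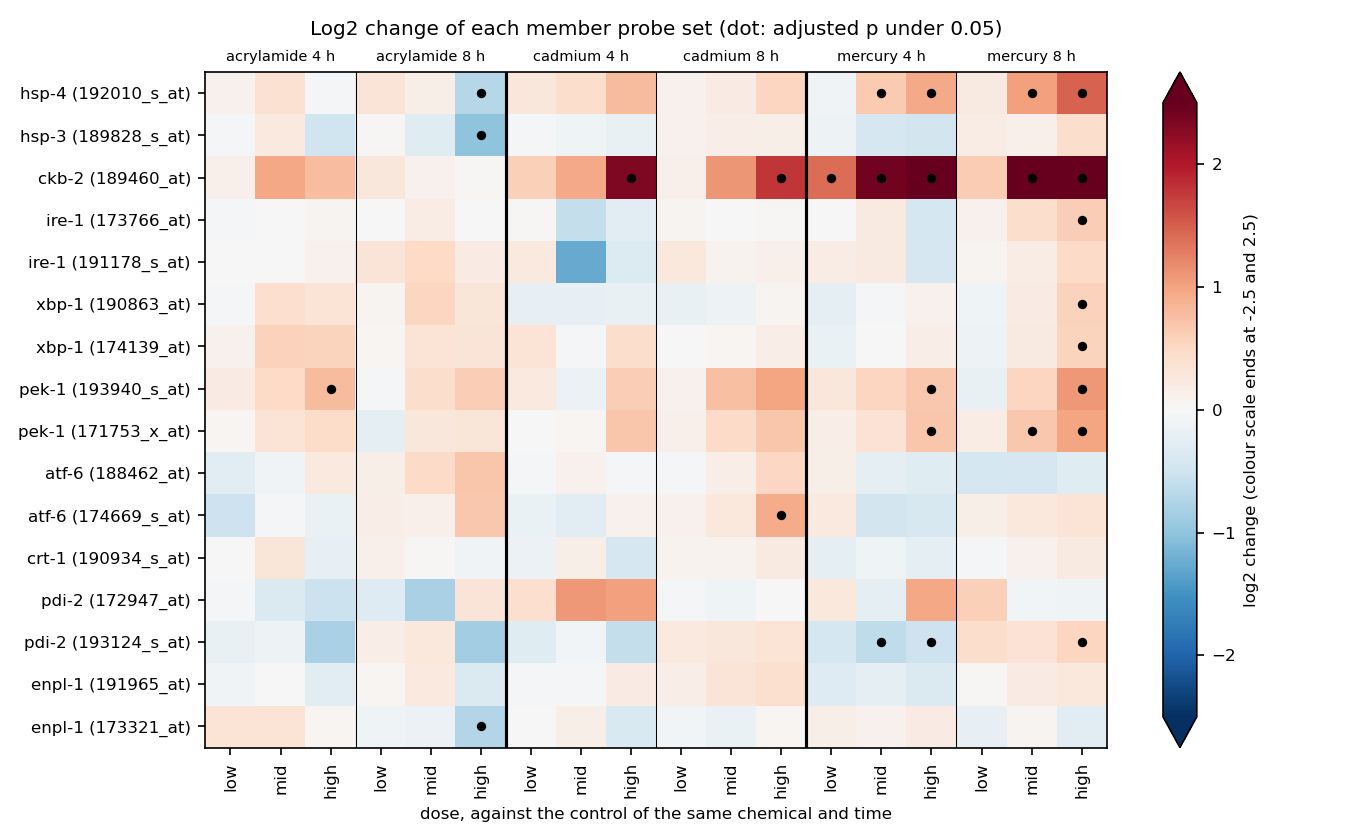
Heat map of the log2 change against the matching control of each series, with the 16 probe sets of the 10 genes in rows and the 18 combinations of chemical, dose and time in columns; a dot marks a limma adjusted p under 0.05 and colours end at −2.5 and 2.5. The ckb-2 row holds the strongest reds, in both metals, and blue dots stand under high acrylamide at 8 h for hsp-3, hsp-4 and enpl-1.

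The chaperone gene hsp-4 rose with mercury dose at both times and fell at 8 h of high acrylamide. Its signal was 6895, 10128 and 10086 in the 3 arrays at 8 h of high mercury, against 3268, 3356 and 2874 in the 8 h controls. Every exposed array lay well above every control array, and hsp-4 rose by 1.48 on the log2 scale (SE 0.19, 2.79-fold, adjusted p 5.16e-07). Its mean signal over the doses at 8 h was 3166 ± 256 in controls, 3712 ± 383 at low, 6632 ± 1621 at mid and 9036 ± 1855 at high mercury (SD, n = 3 each). The control and low-dose arrays lie apart from the mid and high doses, while the mid and high doses overlap. The mid-dose change at 8 h was 1.03 (adjusted p 0.000208) and the low-dose change was 0.23 (adjusted p 0.914).

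Already at 4 h of high mercury hsp-4 read 7658, 8799 and 11619, against 5301, 4525 and 4509 in the 4 h controls. The groups did not overlap, and hsp-4 rose by 0.94 (SE 0.19, 1.92-fold, adjusted p 0.000384). The change at mid mercury was 0.65 at 4 h (adjusted p 0.0148), and it missed the threshold without replicate 2 or 3 of the control or of the mid dose. The slope of hsp-4 per dose step was 0.36 at 4 h and 0.52 at 8 h (adjusted p 4.83e-08 at 8 h).

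In cadmium, hsp-4 read 10587, 10818 and 6020.4 at 4 h of the high dose, against 5063, 5089 and 5119.7 in the controls. All exposed arrays were above the controls, but replicate 3 lay close to them and the other replicates lay far above. The change of 0.79 (SE 0.27, 95% interval 0.23 to 1.35) missed the threshold with an adjusted p of 0.0829. Without replicate 3 of the high dose it was 1.06 (adjusted p 0.0194), and it was also called under the authors' scaling (1.04, adjusted p 0.0029), quantile normalization (1.23, adjusted p 0.00233) and with the 3′ to 5′ ratio of actin as a covariate (1.05, adjusted p 0.0303). At 8 h the same replicate number was again the lowest, with 6922, 7041 and 4158 at high cadmium, against 3885, 3998 and 4295 in controls. There the groups overlapped and the change was 0.53 (adjusted p 0.296).

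High acrylamide gave lower hsp-4 at 8 h, with 1876, 2717 and 2816 against 3603, 3918 and 4647 in the controls. No array of one group reached the other, and the log2 level of hsp-4 fell by 0.72 (SE 0.22, adjusted p 0.0374). That call was lost without any 1 of the control arrays and without replicate 1 or 2 of the high dose. At 4 h the exposed arrays, 4102, 4841 and 4352, overlapped with the controls at 5665, 3972 and 4250.4. Over the 27 groups mean hsp-4 signal was highest at high mercury at 4 h (9359), high cadmium at 4 h (9142) and high mercury at 8 h (9036), which do not differ beyond their spread. It was lowest at high acrylamide at 8 h (2469.8), and this was the only neighbouring gap in the order larger than the larger SD of its 2 groups.

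The second BiP gene, hsp-3, was called against control at 8 h of high acrylamide alone. It read 1423, 2391 and 2079 at 8 h of high acrylamide, against 3706, 3516 and 4517 in controls. The groups were far apart, and its log2 level fell by 0.999 (SE 0.22, adjusted p 0.00409). The call held with any single array of these 2 groups left out, and it was lost under the authors' own scaling. The slope over acrylamide doses at 8 h was −0.33 per step for hsp-3 (adjusted p 0.0021) and −0.23 for hsp-4 (adjusted p 0.027).

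In worms with high mercury for 8 h, hsp-3 read 3347, 5391 and 5008, against 3326, 3493 and 3115 in controls. Replicate 1 of the exposed worms lay among the controls and the other replicates lay above. The change was 0.43 (95% interval 0.03 to 0.84, adjusted p 0.0942), and without that array it was 0.64 with an adjusted p of 0.0169. At 4 h of high mercury hsp-3 lay the other way, at 3726, 3727 and 4524, against 6007, 5065 and 5367 in controls. All exposed arrays were below the controls without a call. Its slope over mercury doses at 4 h was −0.165 (adjusted p 0.0513), called in 4 of 11 alternatives. The hsp-3 and hsp-4 probe sets both carry the suffix that the array maker uses for possible cross-hybridization between related sequences, so their signals may share some transcript.

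**Figure D2:**
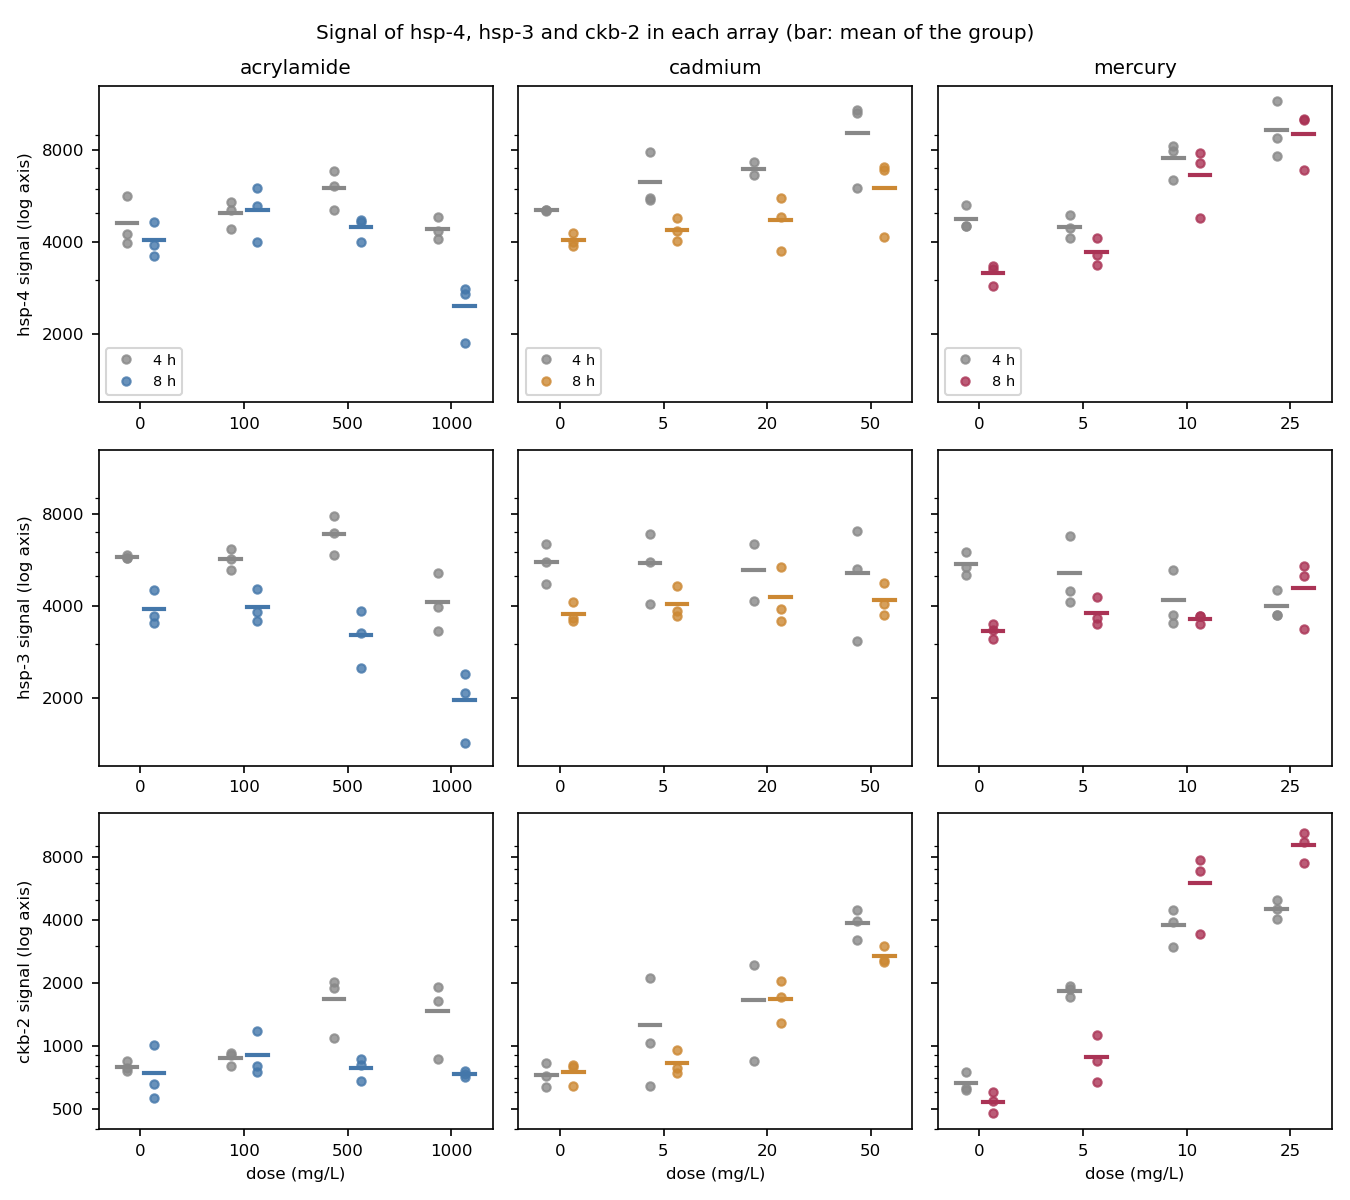
Signal of hsp-4, hsp-3 and ckb-2 (log axis) in each array against dose in mg/L, drawn in equal steps, for acrylamide, cadmium and mercury; grey is 4 h, colour is 8 h, points are arrays and bars are group means. At 8 h the mean of hsp-4 runs up to 9036 at high mercury while it lies at 2469.8 at high acrylamide.

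Among the sensors, pek-1 rose at high mercury, and through 1 probe set at mid mercury for 8 h and at 4 h of high acrylamide. Its first probe set read 687, 976 and 974 at 8 h of high mercury, against 498, 276 and 401 in controls. The second read 568, 616 and 807, against 349.9, 303 and 275. Both sets separated the groups fully, with changes of 1.09 (SE 0.20, adjusted p 9.43e-05) and 0.98 (SE 0.16, adjusted p 2.24e-05). With 4 h of high mercury pek-1 rose by 0.68 and 0.70 (adjusted p 0.0129 and 0.00166), the first of which missed the threshold without high-dose replicate 2 or control replicate 3. At mid mercury for 8 h the second rose by 0.68 (adjusted p 0.0027) and the first, at 0.54, was not called (adjusted p 0.0552). Both probe sets carry a suffix for possible cross-hybridization.

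In acrylamide the first pek-1 probe set read 532, 668 and 852 at 4 h of the high dose, against 273, 416 and 424 in controls. The arrays did not overlap and pek-1 rose by 0.80 (SE 0.22, adjusted p 0.0314), a call that was lost without replicate 1 of the control or without replicate 2 or 3 of the high dose. The second pek-1 probe set read 507, 582 and 359 at 4 h of high acrylamide, against 285, 362 and 356 in controls, so it overlapped, and its change of 0.45 was not called (adjusted p 0.277). In cadmium the first probe set read 616, 692 and 661 at 8 h of high cadmium, against 305, 254 and 376 in controls. All exposed arrays were higher, yet the change of 0.98 missed the threshold (adjusted p 0.0597), while its slope over cadmium doses at 8 h was called at 0.36 per step (adjusted p 0.0188). The second was not called there, with a change of 0.70 (adjusted p 0.125) and a slope of 0.24 per step (adjusted p 0.0637).

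The IRE-1 gene read higher than in controls at 8 h of high mercury and lower at 4 h. The main ire-1 probe set read 1439, 1903 and 1763 at 8 h of high mercury, against 1026, 1029 and 1209 in controls, all exposed arrays above all controls. It rose by 0.62 (SE 0.17, 1.53-fold, adjusted p 0.00667). At 4 h it read 1123, 1359 and 889.7, against 1742, 1393 and 1419.7, which puts all exposed arrays below the controls with a change of −0.43 that missed the threshold (adjusted p 0.072). The second ire-1 probe set, which is shared, changed by 0.48 at 8 h of high mercury (adjusted p 0.0774), with replicate 1 inside the control range. Without that array its change was 0.75 (adjusted p 0.00577).

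At mid cadmium for 4 h, the group of 2 arrays, the ire-1 values turned on which array was kept. The first ire-1 probe set changed by −0.60 (adjusted p 0.192) with both arrays, 0.12 without replicate 1 and −1.32 without replicate 2 (adjusted p 0.00195). For the second, shared ire-1 probe set these were −1.25, 0.03 and −2.54. The uncalled pdi-2 probe set turned the other way, with 1.08 for both arrays, −0.27 without replicate 1 and 2.43 without replicate 2. Values of single members in this group thus depended on the array kept.

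The transcription factor gene xbp-1 was called at a single dose and time. The first xbp-1 probe set read 6976, 9338 and 10341 at 8 h of high mercury, against 5565, 6526 and 5522 in controls. The second read 3986, 4436 and 4622, against 2891, 3433 and 2519. Neither set overlapped between the groups, and xbp-1 rose by 0.58 (1.49-fold, adjusted p 0.0101) and 0.56 (1.48-fold, adjusted p 0.00937). Each of these calls was lost without 1 array, at 0.46 with an adjusted p of 0.0707 without replicate 3 of the high dose for the first and at 0.46 with 0.0663 without replicate 3 of the control for the second.

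The call on atf-6 came in cadmium. Its shared probe set read 600.3, 543 and 446 at 8 h of high cadmium, against 276, 247 and 238 in controls, with no overlap. It rose by 0.93 (SE 0.19, 1.9-fold, adjusted p 0.0021), with adjusted p 0.0728 and 0.0525 without all arrays of replicate 1 and of replicate 2. The other atf-6 probe set read 231, 257 and 198, against 109, 139 and 192, so the groups stood apart by a small margin, and its change of 0.52 was not called (adjusted p 0.201). The atf-6 probe sets changed by −0.31 and 0.35 at 8 h of high mercury, neither called. At 8 h of high acrylamide both read higher than in controls, again without a call. The shared probe set changed by 0.68 there (adjusted p 0.124), and the other averaged 223.3 against 121.6 in controls.

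The widest changes among the members were those of ckb-2, a gene of the choline kinase family, whose enzymes start phosphatidylcholine synthesis. It read 7485, 9486 and 10434 at 8 h of high mercury, against 478, 599.6 and 543 in controls. The exposed arrays lay more than an order of magnitude above the controls, a rise of 3.95 (SE 0.22, 15.5-fold, adjusted p 2.81e-13). Mean ckb-2 signal over the mercury doses at 8 h was 540.1 ± 61.1 in controls, 881 ± 232 at low, 6016 ± 2275 at mid and 9135 ± 1506 at high dose (SD, n = 3 each). The step between low and mid dose was the widest, and the low-dose change of 0.63 was not called (adjusted p 0.341).

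At 4 h ckb-2 had already risen at low mercury, where it read 1882, 1933 and 1707, against 631, 616 and 754 in controls. No other member was called at low dose of any chemical. That rise was 1.40 (SE 0.22, adjusted p 0.000159), beside 2.40 at mid and 2.67 at high mercury at 4 h (adjusted p 4.1e-09 and 5.84e-10). In cadmium ckb-2 read 3978, 4449 and 3204 at 4 h of the high dose, against 826, 638 and 719 in controls, and 2523, 2582 and 3011 at 8 h, against 810.4, 790.0 and 642. Both high-dose cadmium groups lay wholly above their controls, with rises of 2.33 (SE 0.33, 5.02-fold, adjusted p 2.77e-05) and 1.79 (SE 0.33, 3.46-fold, adjusted p 0.000732).

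Acrylamide left ckb-2 uncalled at single doses. Its signal at 4 h of high acrylamide was 863, 1917 and 1649, against 755, 847 and 786, and replicate 1 lay just above the controls. The change of 0.78 had an adjusted p of 0.0812, and without that array it was 1.11 with an adjusted p of 0.00711. Its slope over acrylamide doses at 4 h was called, at 0.32 per step (adjusted p 0.0146). At 8 h of high acrylamide the arrays overlapped with the controls and the change was 0.02 (95% interval −0.52 to 0.56). Across the 27 groups the order of mean ckb-2 signal began with high and mid mercury at 8 h, then high mercury and high cadmium at 4 h, and ended with the mercury control at 8 h. Among these leading groups the first stood above the second and the third above the fourth by more than the larger SD, while mid mercury at 8 h and high mercury at 4 h did not differ beyond it.

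The genes of folding in the ER lumen moved less and not in 1 direction. The gene pdi-2 encodes a protein disulfide isomerase, which in worms also takes part in making cuticle collagen. Its shared probe set read 3600.0, 3844 and 4872 at 4 h of high mercury, against 7251, 5255 and 5239 in controls. The groups did not overlap and pdi-2 fell by 0.52 on the log2 scale (adjusted p 0.0481). At 8 h it read 2760.4, 4235 and 4902, against 2899.9, 2709 and 2383, where replicate 1 lay inside the control range, and its change of 0.53 was called (adjusted p 0.0325). The 8 h call was lost without replicate 2 or 3 of either group and the 4 h call without replicate 1 or 2 of either group. At mid mercury for 4 h the shared probe set fell by 0.63 (adjusted p 0.0187), a call lost in 6 of 18 alternatives. The other pdi-2 probe set was not called at any dose, and outside mid cadmium at 4 h its changes ran between −0.81 and 1.03. It took the opposite sign at 4 h of high mercury, where it read 3344, 828 and 1233, against 568, 667 and 1092 in controls. The groups overlapped, replicate 1 of the exposed worms stood far above the rest, and the change was 0.97 (adjusted p 0.0709), or 0.41 without that array (adjusted p 0.491). It was called without high-dose replicate 2 (1.39, adjusted p 0.0148) or control replicate 3 (1.23, adjusted p 0.0397).

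The GRP94 gene enpl-1 was called through its second probe set alone, at 8 h of high acrylamide. It read 666, 767 and 1134, against 1257, 1659.7 and 1399.5 in controls, with no overlap between the groups. The log2 level of that probe set fell by 0.74 (SE 0.22, adjusted p 0.0369), and the call was lost without any 1 control array and without replicate 1 or 2 of the high dose. The calreticulin gene crt-1, a calcium-binding chaperone of the ER lumen, was not called in any of the 18 comparisons, and its changes ran between −0.43 and 0.31. High mercury at 8 h changed crt-1 by 0.22 and the enpl-1 probe sets by 0.27 and −0.26, none called.

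**Figure D3:**
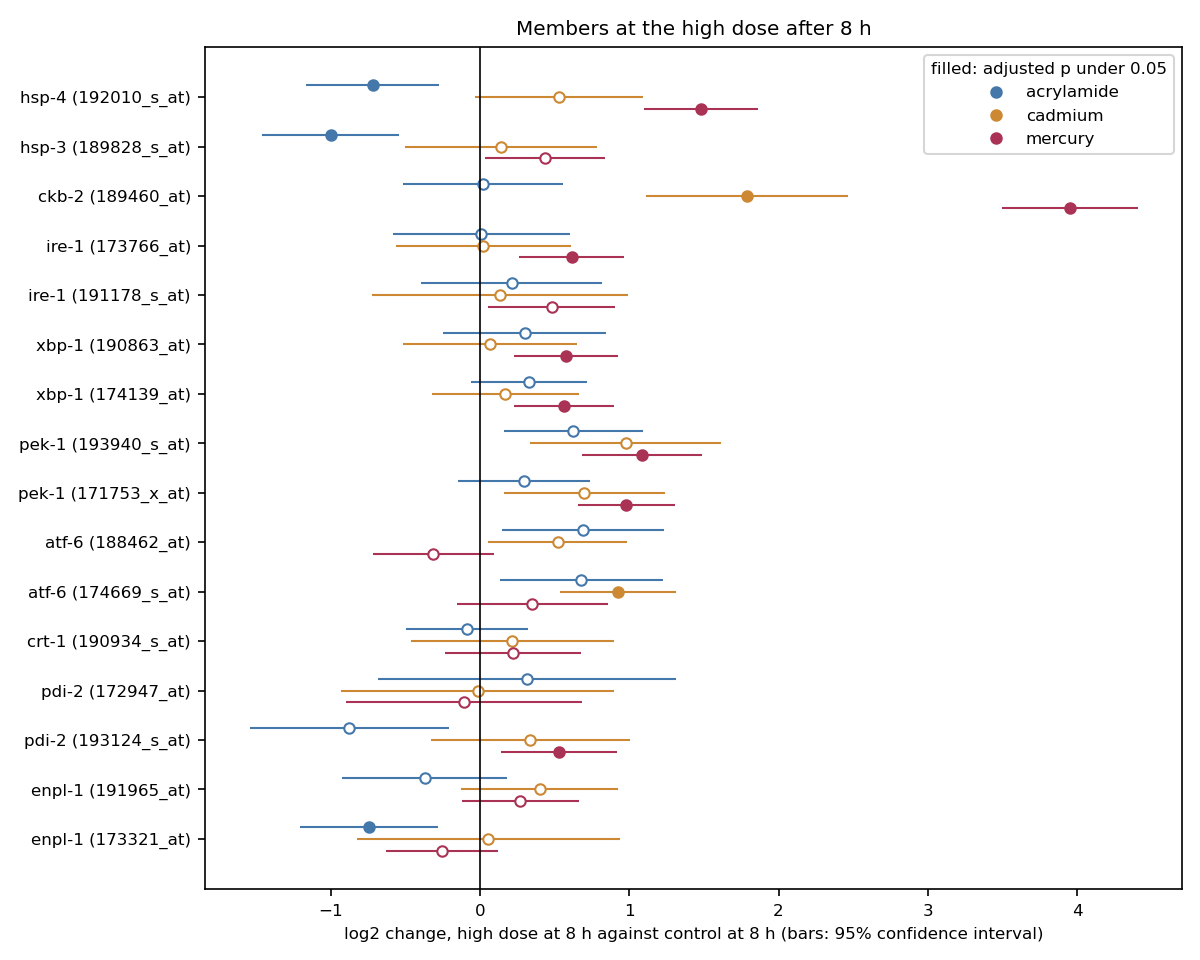
Log2 change against control at 8 h of the high dose for each member probe set, in acrylamide, cadmium and mercury; bars are 95% intervals from the limma fit and filled points were called. In mercury ckb-2 stands at 3.95, followed by hsp-4 at 1.48 and the pek-1 probe sets, and in acrylamide hsp-3 stands at −0.999.

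The slope over control, low, mid and high dose used all arrays of a time at once. It called as many members as the high dose in mercury and at 4 h of cadmium, and more in acrylamide and at 8 h of cadmium. Mercury at 8 h had 8 of 16 slopes called, all upward, for the genes named at the high dose, beside 37.1% of all probe sets (20.2% upward). Mercury at 4 h had 4 upward and 1 downward, beside 26.2% of all (11.1% upward and 15.1% downward). In cadmium 1 slope was called at 4 h (12.6% of all, 4.34% upward) and 3 at 8 h (9.45%, 4.65% upward), all upward. In acrylamide 3 were upward at 4 h (7.31% of all, 3.78% upward), among them an xbp-1 probe set at 0.22 per step (adjusted p 0.023), and 1 was upward and 3 downward at 8 h (11.2% of all, 5.39% upward and 5.77% downward).

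The effect of high mercury at 8 h less that at 4 h was tested directly, and 2 of 16 probe sets were called, both higher, beside 0.793% of all (0.415% higher). For ire-1 the difference was 1.05 (SE 0.24, adjusted p 0.0352) and for ckb-2 it was 1.28 (SE 0.31, adjusted p 0.0474). Both calls were lost without all arrays of replicate 2 (1.13 and 1.44, adjusted p 0.302 for each) and without those of replicate 3, and that of ire-1 also without those of replicate 1 (adjusted p 0.053), so it was lost whichever replicate number was left out. For hsp-4 it was 0.53, with a 95% interval of −0.01 to 1.08, which was not called (adjusted p 0.326). No member was called for this difference in acrylamide (0% of all probe sets) or cadmium (0.234%).

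To compare chemicals, the 3 series were fitted together and each effect was taken against the controls of its own series. The cadmium and mercury low doses, both 5 mg/L, are the only matched doses. At 5 mg/L no member was called for cadmium less mercury at 4 h (0.196% of all probe sets) or 8 h (0.151%). The hsp-4 difference there was 0.38 at 4 h (95% interval −0.24 to 0.99) and −0.11 at 8 h (−0.73 to 0.50), and the ckb-2 difference was −0.80 (−1.59 to −0.01) and −0.50 (−1.29 to 0.29). The other doses differ in mg/L, so the values at high dose describe these exposures and not equal amounts.

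For the high doses at 8 h, mercury less acrylamide was called higher for 4 members, beside 3.33% of all probe sets called (1.85% higher). The difference was 2.198 for hsp-4 (SE 0.31, adjusted p 4.13e-07), 3.93 for ckb-2, 1.43 for hsp-3 and 1.40 for the shared pdi-2 probe set. Cadmium less acrylamide was called for hsp-4 at 1.25 and ckb-2 at 1.77 (2.42% over all, 1.6% higher). For hsp-3 that difference was 1.14 without a call (adjusted p 0.0641). Cadmium less mercury was called for ckb-2 alone, at −2.16 (adjusted p 0.00017, 3.35% over all and 1.25% lower), while hsp-4 differed by −0.95 (95% interval −1.57 to −0.34, adjusted p 0.0725). At 4 h only ckb-2 was called, at 1.89 for mercury less acrylamide (2.67% over all, 1.15% higher) and 1.55 for cadmium less acrylamide (2.03%, 0.93% higher), and no member for cadmium less mercury (1.63%). The differences of ckb-2 for mercury less acrylamide at both times and for cadmium less mercury at 8 h, and that of hsp-4 for mercury less acrylamide, were called with any replicate number left out, and the other 5 were each lost without at least 1 number.

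The folding genes also differed with time in unexposed worms, which changes the level each dose is set against. In the mercury controls 4 of 16 probe sets were lower at 8 h than at 4 h and none was higher, beside 14.1% of all probe sets called (9.62% lower). In those controls hsp-3 read 3326, 3493 and 3115 at 8 h, against 6007, 5065 and 5367 at 4 h, without overlap. It fell by 0.72 on the log2 scale (adjusted p 0.0135), hsp-4 by 0.59, the first enpl-1 probe set by 0.70 and the shared pdi-2 probe set by 1.12. With all arrays of replicate 2 or of replicate 3 left out, only pdi-2 was called. The members' median change was −0.39, beside −0.09 over all probe sets. Of the hsp-3 signals at 8 h of high mercury, 3347, 5391 and 5008, only 1 reached the range of the 4 h controls.

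In the cadmium controls the shared pdi-2 probe set was 1.20 lower at 8 h than at 4 h (adjusted p 0.0175), the 1 member called beside 8.46% of all (4.89% lower). No member was called between 8 h and 4 h in the acrylamide controls (0.212%), where the same pdi-2 probe set changed by −1.33 (adjusted p 0.0585). Between 4 h and 0 h each series had 1 member call, all lower: the second enpl-1 probe set by 0.86 in acrylamide (7.88% over all, 3.91% lower) and by 0.53 in mercury (16.2%, 7.31% lower), and the shared atf-6 probe set by 0.63 in cadmium (6.87%, 1.81% lower). The acrylamide call rests on the group with the dim array and was lost under the authors' scaling (−0.27, adjusted p 0.619), quantile normalization (−0.54, adjusted p 0.105) and without replicate 2 or 3, while without replicate 1 the change was −1.15 (adjusted p 0.00462). The enpl-1 call in mercury and the atf-6 call in cadmium were lost without any 1 replicate number and under the authors' scaling (adjusted p 0.118 and 0.0786).

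**Figure D4:**
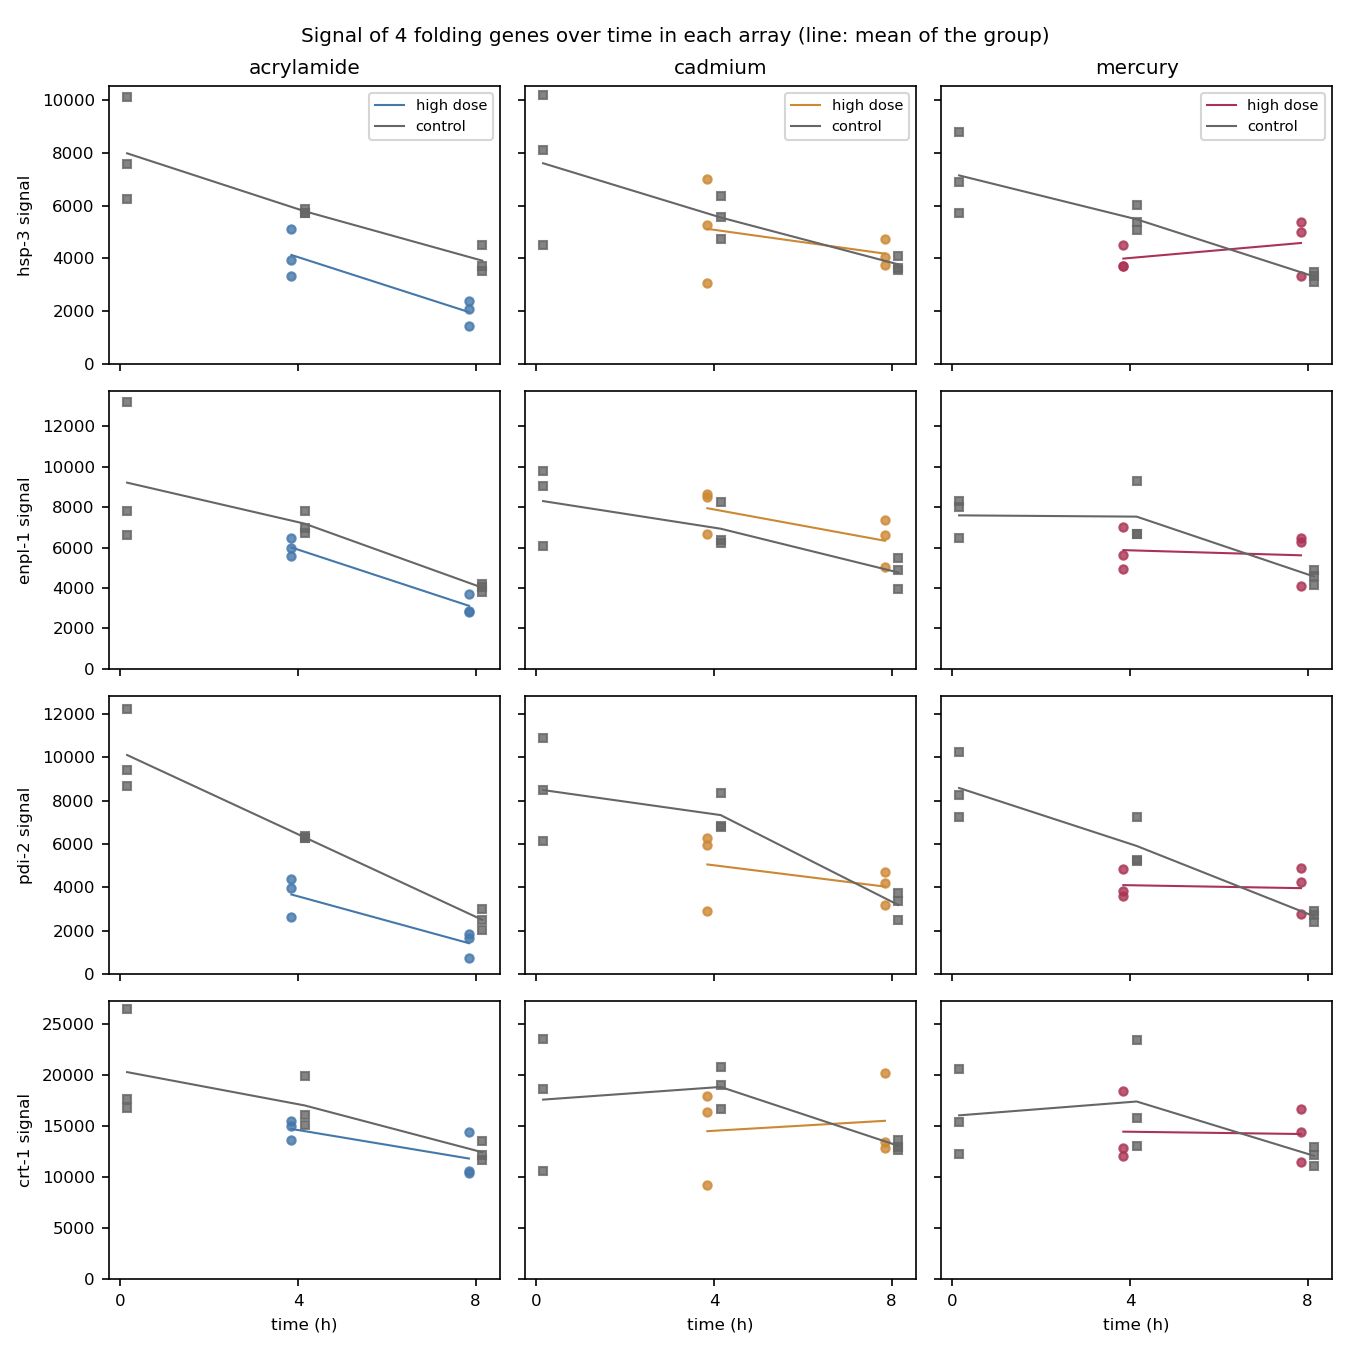
Signal of hsp-3, enpl-1, pdi-2 and crt-1 in each array against time in h for the 3 series; circles are the high dose, squares the control and lines the group means. In the mercury controls hsp-3 lies between 3115 and 3493 at 8 h, against 5065 to 6007 at 4 h.

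The order of mean levels over the 27 groups, read on 1 probe set per gene, differed between members. Mean hsp-3 signal was 7981 in the acrylamide controls at 0 h, where replicate 1 is the dim array, and 1964 at high acrylamide for 8 h, the lowest group by more than its SD. For enpl-1 the same groups were at the ends, with 9205 and 3120.0. The highest pek-1 mean, 879, was at high mercury for 8 h and the lowest, 312, in the cadmium controls at 8 h. For xbp-1, ire-1, atf-6, pdi-2, pek-1 and crt-1 no neighbouring pair in the order differed by more than the larger SD.

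Other genes of the ER pathway were counted in 6 lists, of which 62 of 65 genes had a probe set. Genes of translocation into the ER and of glycosylation fell at high dose wherever any was called. Of 14 measured, 10 fell at 4 h and 6 at 8 h of mercury, 6 at 4 h and none at 8 h of cadmium, and 5 and 6 in acrylamide, with none higher. Beside these, 13.4% of all probe sets fell at 4 h of high mercury and 4.61% at 8 h of high acrylamide. At the other high doses 2226 of all 15886 tested fell at 8 h of mercury and 505 of 16542 at 4 h of acrylamide. In high cadmium 691 of 16225 fell at 4 h and 457 at 8 h. The median change of the list lay between −0.72 at 4 h of cadmium and −0.32 at 8 h of mercury, beside −0.12 and 0.01 over all probe sets. The translocon-associated gene trap-1 averaged 1421 at 8 h of high mercury and 4486 in controls, a fall of 1.63 on the log2 scale (adjusted p 4.88e-08). The change of trap-1 was −1.17 at 8 h of high acrylamide and −1.496 at 4 h of high cadmium.

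Luminal folding genes outside the members rose at 8 h of high mercury, where 6 of 15 were called higher and none lower. Their median was 0.27, beside 17.1% of all probe sets higher and a median of 0.01. The largest was dnj-27, a DnaJ protein of the ER lumen, at 277 against 84.9 in controls, a rise of 1.28, although the control level lay under the filter signal of 131. The oxidase gene ero-1 rose by 0.65 and R12E2.13 by 1.19. At mid mercury for 8 h 2 of 15 rose, beside 10.2% of all probe sets, and none was called at low mercury for 8 h (0.699% of all). With high mercury for 4 h, 1 rose, R12E2.13 at 0.58, and 3 fell, among them dnj-7 by 0.64 and pdi-1 by 0.57, counts near the shares of all probe sets (9.03% higher and 13.4% lower). In cadmium calu-1 fell by 1.21 at 4 h and R12E2.13 rose by 1.37 at 8 h, and in acrylamide calu-1 fell by 1.36 at 8 h.

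ER-associated degradation carries misfolded protein out of the ER to the proteasome, and 8 of its 16 listed genes rose at 8 h of high mercury with none lower and a median of 0.38, beside the same 17.1% of all probe sets higher. The largest was C47E12.3 at 0.94. The npl-4.1 and npl-4.2 calls, 0.67 and 0.74, come from near-identical copies whose probe sets may share transcript. With high mercury for 4 h, 2 rose and 3 fell, with F10C2.5 lower by 1.13, which is near the shares of all probe sets (9.03% and 13.4%), and no gene of this list was called at high acrylamide or high cadmium. Of 5 signalling partners atf-4, the transcription factor translated when PERK and related kinases act, was the 1 called. It averaged 3385 at 8 h of high mercury and 1425 in controls, a rise of 1.22 (adjusted p 3.17e-06), and 3444 at 8 h of high acrylamide and 968 in controls, a rise of 1.71 (adjusted p 0.00199).

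Phosphatidylcholine synthesis beyond ckb-2 showed lower calls for the most part. At high dose 3 of its 10 genes fell at both times in acrylamide and mercury and at 4 h in cadmium. Of all probe sets, 505 of 16542 fell at 4 h and 4.61% at 8 h of acrylamide, and 691 of 16225 at 4 h of cadmium. In mercury 13.4% fell at 4 h and 2226 of 15886 at 8 h. In mercury 1 gene of the list also rose at each time, beside 9.03% and 17.1% of all probe sets higher. In acrylamide 1 rose at 8 h, beside 687 of 16542. In either direction 6.16% and 8.77% of all were called in acrylamide, 22.4% and 31.1% in mercury (at 4 h and 8 h) and 7.09% in cadmium. At 8 h of high mercury the calls of the list in either direction lie near that share. The gene pcyt-1, whose enzyme makes CDP-choline, fell by 1.43 in acrylamide, 1.66 in cadmium and 1.21 in mercury at 4 h. The gene sams-1, whose enzyme makes the methyl donor S-adenosylmethionine, rose by 1.04 in acrylamide and 0.61 in mercury at 8 h and fell by 1.44 at 4 h of cadmium. Of the ER calcium genes sca-1 and itr-1, the receptor gene itr-1 fell by 0.90 at 4 h of high mercury.

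**Figure D5:**
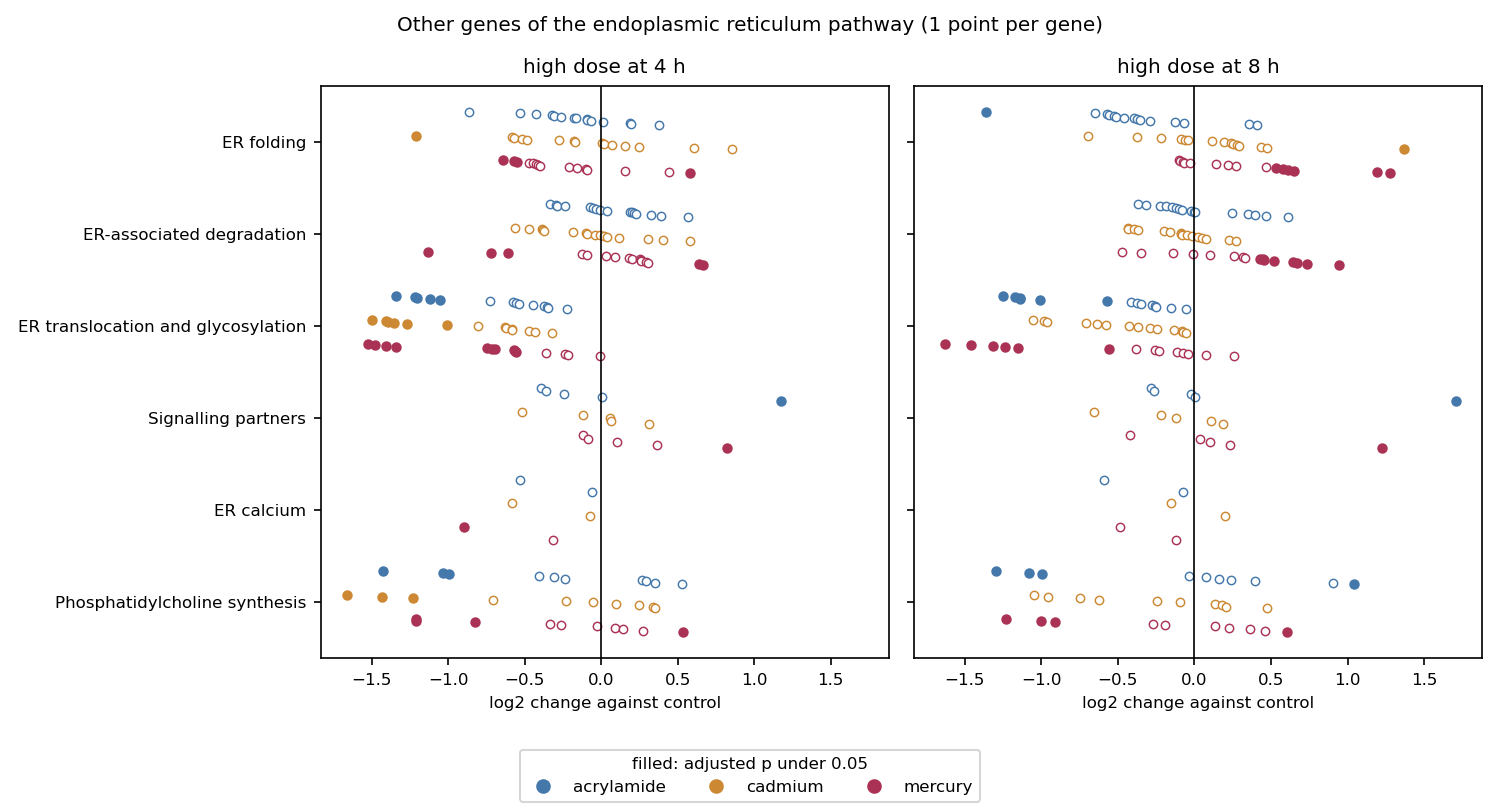
Log2 change against control at 4 h and 8 h of the high dose for each gene of the 6 lists, 1 point per gene, coloured by chemical, with filled points called at a limma adjusted p under 0.05. Translocation and glycosylation genes lie left of 0 when called, and the filled mercury points of folding and degradation genes lie right of 0 at 8 h.

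Markers of tissues moved in the same comparisons. After 8 h of high mercury 5 of 10 germline, 6 of 9 intestine and 4 of 6 tested muscle markers were lower, as were 3 of 6 epidermis markers, while 2 of 6 neuron markers were higher and no sperm marker was called. Summed germline signal was 7457 to 9869 in those worms and 13175 to 16650 in controls, summed intestine signal 38626 to 49840 and 54574 to 70897, and summed muscle signal 13905 to 19250 and 31418 to 39845. After 8 h of high acrylamide 8 of 10 germline and 5 of 9 intestine markers were lower, with intestine sums of 26225 to 40767 and 48279 to 55615 in controls. Of 6 tested muscle markers 2 were lower there, with muscle sums of 16163 to 22080 and 27328 to 34421 in controls. After 8 h of high cadmium 6 of 10 germline markers and 1 of 6 tested muscle markers were lower and 2 of 9 intestine markers higher. Summed muscle signal there was 15396 to 22865 and 31443 to 33801 in controls. The intestine list was fixed with the metallothionein gene mtl-2 in it, and 1 intestine marker was also higher at low cadmium at each time (0.61% and 0.29% of all called). Whether intestine counts and sums hold a metal response of a marker was not tested. Already at 4 h of high mercury 5 germline, 5 intestine, 3 muscle and 2 epidermis markers were lower and 1 intestine marker higher, with summed germline signal of 7767 to 8480 and 10630.0 to 11821 in controls. Over all probe sets, 2226 of 15886 were lower and 17.1% higher at 8 h of high mercury, and 13.4% lower and 9.03% higher at 4 h. At 8 h, 4.61% were lower with high acrylamide. With high cadmium at 8 h, 457 of 16225 were lower and 3.61% higher. The part of the marker shifts in the member changes was not tested.

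The 3′ to 5′ ratio of the actin control probe sets, a measure of RNA and label quality, also moved. On the log2 scale it was 1.53 ± 0.13 at 8 h of high mercury and 1.01 ± 0.10 in controls, and 1.31 ± 0.17 at 8 h of high acrylamide and 0.97 ± 0.10 in controls (SD, n = 3 each). For 4 h the actin ratio was 1.31 ± 0.13 at high mercury and 0.86 ± 0.08 in controls, and 1.07 ± 0.31 at high cadmium and 0.65 ± 0.18 in controls, and at mid mercury for 8 h it was 1.34 ± 0.05. The GAPDH ratio was 0.163 at 8 h of high mercury and 0.165 in controls. With the actin ratio as a covariate the high-mercury change at 8 h was 1.37 for hsp-4 (adjusted p 0.00148) and 3.70 for ckb-2 (adjusted p 3.21e-08), and hsp-3 was called at 1.06 (adjusted p 0.00473). At 4 h of mercury hsp-4 was 0.85 at the high dose (adjusted p 0.0476) and 0.58 at the mid dose, no longer called (adjusted p 0.131), and the second pek-1 probe set at the high dose was 0.69 (adjusted p 0.0616). Over all probe sets there were 1208 calls at 4 h of high mercury with the covariate and 3556 without it. At 8 h the xbp-1 changes became 0.67 and 0.35 and the shared pdi-2 change 0.71, none of them called. At 8 h of high acrylamide hsp-3 stayed called at −1.10 (adjusted p 0.00686), while hsp-4 at −0.77 (adjusted p 0.0671) and enpl-1 at −0.71 (adjusted p 0.107) were not.

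Over the 18 changes against control, which share controls within a series and time, the 5 genes outside the members with a pattern most like hsp-4 were tag-120, clec-265, F19B2.5, ubql-1 and ZK896.5. Pearson's r with hsp-4 was 0.90, 0.89, 0.89, 0.89 and 0.88, highest among 11550 genes. With 8 h of high mercury they changed by 1.40, 0.99, 2.48, 1.13 and 1.98, and at 8 h of high acrylamide by −0.60, −0.92, −0.52, −0.06 and −1.92.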

How the data were processed

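The authors deposited 1 intensity per probe set and array as MAS5 signal, per the submitters' processing notes, which give no version. Their scaling left a 2% trimmed mean of 499.8 to 499.9 in 79 arrays and 214.8 in the other. As the array medians spanned a ratio of 3.51, above the limit of 2 set for this step, all arrays were centred on a median of 202.9. Tests covered probe sets with a signal over 131, the 40th percentile, on 3 or more arrays of the series, and 51, the 20th percentile, was added before log2. This left 16542, 16225 and 15886 probe sets for acrylamide, cadmium and mercury, and 17855 for the fit of all arrays.

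Each series was fitted with limma 3.58.1 in R 4.3.3, with 1 mean per group and a variance trend (residual degrees of freedom 18, 17 and 18, and 53 for all arrays), and p-values were adjusted within each contrast over all probe sets tested. Symbols came from the platform annotation, where 20766 probe sets had 1 symbol, 887 several and 895 none. All 10 members and all their probe sets were named. One probe set stood for a gene in the order of levels, without a cross-hybridization suffix where possible, then of the highest mean signal. Up to 3 called genes per list with the largest change were named. The members and lists were chosen with earlier results of these data known. Tested on simulated data for high mercury at 8 h, the fit called 72.5% of genes changed by 1 log2 unit and 17.5% of those changed by 0.5. That simulation changed 40 probe sets per size, far fewer than the 4937 of 15886 called in the data. Its adjusted threshold was thus stricter, and these shares do not measure what the real comparison could detect. The closing section gives the alternatives. Intensities carry no counts, so precision is given by the spread between arrays. Genome coordinates and sequences were not used here.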

Additional observations from a re-analysis of the deposited data

Results flagged for a closer look

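The differences below stood out because the effect of an exposure differed between 2 times or 2 chemicals by a direct limma test. Between 8 h and 4 h of high mercury the effect differed by 1.046 for ire-1 and by 1.279 for ckb-2. Between chemicals at 4 h of the high doses ckb-2 differed by 1.55 for cadmium less acrylamide and by 1.892 for mercury less acrylamide. At 8 h ckb-2 differed by 1.77 for cadmium less acrylamide, by 3.93 for mercury less acrylamide and by −2.16 for cadmium less mercury. At 8 h hsp-4 differed by 1.247 for cadmium less acrylamide and by 2.198 for mercury less acrylamide. At 8 h of mercury less acrylamide hsp-3 differed by 1.434 and the shared pdi-2 probe set by 1.404. The high doses of the chemicals differ in mg/L. Groups held at most 3 arrays, so single stray arrays were not looked for by a test.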

How the results depend on the processing

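No called member value changed sign in any alternative. Among member results called in the report or in at least 1 alternative, 1734 values stayed on their side of the threshold while 169 gained and 168 lost a call. Member results that were never called are left out of this tally. In all 18 alternatives the ckb-2 calls at 4 h and 8 h of high cadmium and of mid and high mercury and at 4 h of low mercury were kept, as were those of hsp-4 at high mercury at both times and mid mercury at 8 h and of both pek-1 probe sets at 8 h of high mercury. With quantile normalization the dose calls numbered 47 (27 in the report), the slopes 39 (24), the differences between chemicals 14 (9), high acrylamide 2 at 4 h (1) and 5 at 8 h (3, with 2 higher and 3 lower), and high cadmium 5 at 4 h (1) and 6 at 8 h (2). Under the authors' scaling the differences between chemicals numbered 14, high acrylamide 0 at 4 h and 0 at 8 h, and high cadmium 3 at 4 h, and the dose calls split into 26 higher and 2 lower (22 and 5 in the report). That scaling put the median change of all probe sets at 4 h of high cadmium at 0.10 in place of −0.12. With the actin ratio as a covariate high acrylamide had 1 call at 8 h, high cadmium 3 at 4 h and 4 at 8 h, high mercury 3 at 4 h (5) and the difference between times 4 (2). That difference had 1 call with a pseudocount of 16, with no filter and with no variance trend. With only the 2 groups compared in the fit there were 0 and 1 calls for high acrylamide and 2 and 4 for high cadmium at 4 h and 8 h. With 1 probe set per gene there were 3 calls in controls over time (8), 1 at 8 h of high cadmium, and 3 and 5 at 4 h and 8 h of high mercury (5 and 8).

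With a replicate block there were 2 calls at 4 h (1 higher and 1 lower) and 6 at 8 h of high acrylamide and 2 at 4 h of high cadmium, where hsp-4 was gained (0.79, adjusted p 0.0476). Samples with the same number deviated together (correlation over 0.1) in 65 of 108, 57 of 100 and 80 of 108 pairs of the acrylamide, cadmium and mercury series. In these series 25 of 27, 24 of 26 and 25 of 27 samples correlated best with one of their own number. The median correlation was 0.131, 0.131 and 0.18 for the same number and −0.068, −0.082 and −0.093 for other numbers. Arrays of a number thus shared variation, which the main fit had no term for and left in its spread. With the block the dose calls split into 28 higher and 8 lower (22 and 5 in the report).

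Leaving out replicates in turn gave 16 to 34 dose calls, 12 to 25 slopes, 0 to 3 differences between times, 4 to 9 between chemicals and 1 to 10 calls in controls. At high dose the range was 0 to 2 and 0 to 3 for acrylamide, 1 to 2 and 1 to 2 for cadmium, and 2 to 6 and 4 to 11 for mercury, at 4 h and 8 h. Where leaving out an array left 1 in a group, that array was assumed to vary like the others. Without all replicate 2 arrays, hsp-3 at 8 h of high acrylamide (lost also without those of replicate 3) and ire-1 at 8 h of high mercury were no longer called. Groups of 3 arrays limit what can be seen. In the simulation, with far fewer changed probe sets than the data, a change of 0.5 was mostly missed. In the data for high mercury at 8 h, changes of 0.53 (pdi-2) and 0.56 (xbp-1) were called. The causes of the shifts between settings were not tested.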
